A study of Mus musculus with 40 samples.

Results

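Expression in the dorsal hippocampus was compared between old wildtype mice and young wildtype mice, all taken after 1 training session, to see how the old tissue differs in level from the young tissue at the time when memory genes are read out. The comparison holds 12 of the 40 libraries of the series, 1 library for each mouse, with 6 old trained mice and 6 young trained mice. Its members are all genes with a mean of at least 0.5 RPKM (reads corrected for exon length and for library size) over these 12 libraries, 13982 of 20953 genes in the table. Old mice were 18 to 20 months of age, wildtype littermates of a floxed Hdac3 line, and had received a virus with Cre recombinase under the CaMKII promoter, which is active in excitatory neurons, in the dorsal hippocampus before training. These mice carry no floxed Hdac3 allele. Young mice were 2 to 4 months of age, their libraries came from an earlier study, and no virus infusion is given for them. The labels give the strain C57BL/6J for both groups, while the methods of the study give a C57BL/6 background for the Hdac3 line. Both groups explored an arena with objects (object location memory training) and were taken 60 min after behavior. Age, study and virus infusion differ together between the groups and cannot be told apart in any value below. Another 6 old and 6 young wildtype mice of the same 2 sources were taken from the homecage without training and served as a second comparison that shares no mouse with the first.

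The aging hippocampus is known for a rise in the transcripts of innate immunity. Interferons are secreted signals that act on cells to switch on antiviral genes, antigen presentation and chemokines. Complement proteins tag debris and synapses for removal by microglia, the resident macrophages of the brain, and astrocytes respond to injury with intermediate filaments and acute-phase proteins. Newborn neurons and oligodendrocyte precursors are cell populations of this tissue that are known to decline with age.

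Libraries had an estimated depth of 14.3 M to 31.0 M reads (median 20.4 M) in old trained mice and 24.3 M to 35.3 M reads (median 26.2 M) in young trained mice. Mice of a group differed by an SD whose median over genes was 0.152 in old and 0.110 in young trained mice on the log2 scale. Markers of the labelled tissue were present, with Prox1, a factor of dentate granule cells, at 13.4, 19.4 and 25.5 RPKM in old and 13.5, 21.4 and 23.7 RPKM in young trained mice. Here and below, the 3 values given for a group are the lowest, the median and the highest of its 6 mice. Single libraries stood apart. Genes of the choroid plexus, which secretes cerebrospinal fluid, summed to 8599 RPKM in old mouse OWT-BV-127C and 1597 RPKM in old mouse OWT-BV-116C, against 6.84 to 288 RPKM in the other 4 old mice, and to 9302 RPKM in young mouse YWT-BV-1923, against 17.9 to 152 RPKM in the other 5 young mice. Genes of lymphocytes summed to 688 RPKM in old mouse OWT-BV-106C, against 24.7 to 70.5 RPKM in the other 5 old mice. Most of that sum came from Jchain at 437 RPKM, chosen after its values were seen, and Cd52 at 145 RPKM, which microglia also express. In these bulk samples, more cells of a type and more RNA per cell cannot be told apart.

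Old trained mice had 2556 genes higher and 1256 lower than young trained mice, which is 18.3% and 8.98% of all genes tested. Counts in the gene lists below are to be read against these shares. The lists were chosen with earlier results of these data known, so their counts are a description. A gene counts as called where limma gave p under 0.05 together with an adjusted p (Benjamini-Hochberg) under 0.15 on log2(RPKM + 0.5), the thresholds of the study. By at least 1 on the log2 scale, 463 genes (3.31%) were higher and 32 (0.229%) lower, so that large differences ran almost all one way. The values of the 6 old mice lay wholly above those of the 6 young mice in 961 genes (6.87%) and wholly below them in 308 genes (2.20%). Of the 463 genes, 181 had a young mean under 0.5 RPKM and passed the filter on low values through the old mice alone, so that they had to differ, and the other 282 were among the 13636 genes with a young mean of at least 0.5 RPKM. Median-ratio scaling gave 2150 higher and 1829 lower, and quantile normalization 1729 and 3090, so the split between higher and lower calls over all genes depends on the scaling, while the median difference over all genes was 0.023 as deposited and -0.0063 and -0.052 under these scalings. Likewise 8 of the 32 genes lower by at least 1 had an old mean under 0.5 RPKM and passed the filter through the young mice alone. With mice OWT-BV-103C and OWT-BV-106C left out together, 1827 genes were higher and 714 lower.

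**Figure D1:**
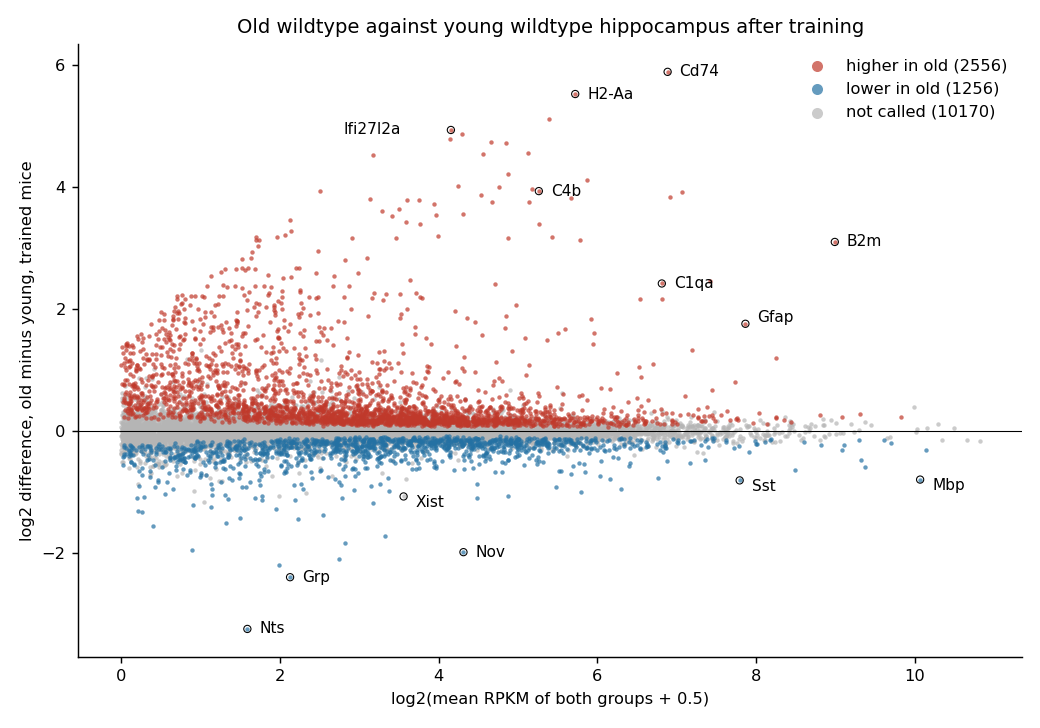
Each point is 1 of the 13982 genes. The horizontal axis gives log2(mean RPKM of both groups + 0.5) and the vertical axis the log2 difference between old and young trained mice, with genes called higher in red (2556), lower in blue (1256) and not called in grey. Most of the points beyond 1 on the log2 scale lie above 0, with Cd74 at 5.90 and Nts at -3.24 at the ends.

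Promoters of the higher genes were searched for a short sequence of the interferon pathway. The core of the interferon-stimulated response element, bound by interferon regulatory factors, was searched as GAAANNGAAA on both strands in a window from 250 bases before to 50 bases after each gene start (RefSeq promoters, GRCm38.p6, the build that the authors call mm10). It was found in 65 of the 336 genes higher by at least 1 that have a promoter in the table (19.3%), in 0 of 17 genes lower by at least 1, in 387 of 10593 tested genes (3.65%) and in 1079 of all 27025 genes with a promoter (3.99%). Of the interferon-stimulated genes listed, 20 of 35 with a promoter held it (57.1%), and of the genes of MHC class I and the immunoproteasome 4 of 16 (25%), of MHC class II 1 of 7 (14.3%) and of complement 1 of 10 (10%). These are matches of letters, and binding was not measured. The stretches below are shown because they belong to the genes of these lists with the largest differences among those that hold the core, with 40 bases on either side of the first match, 5′ to 3′ in the direction of the gene, and every match in capitals.
Igtp (chr11:58199482-58199571, + strand): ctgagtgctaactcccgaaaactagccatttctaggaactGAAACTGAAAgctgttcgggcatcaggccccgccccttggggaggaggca
Isg15 (chr4:156200847-156200936, - strand): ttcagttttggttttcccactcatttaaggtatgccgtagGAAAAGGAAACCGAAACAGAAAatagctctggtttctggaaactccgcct
Bst2 (chr8:71537553-71537642, - strand): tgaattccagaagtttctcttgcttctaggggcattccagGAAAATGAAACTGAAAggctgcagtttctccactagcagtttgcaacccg
H2-T23 (chr17:36032776-36032865, - strand): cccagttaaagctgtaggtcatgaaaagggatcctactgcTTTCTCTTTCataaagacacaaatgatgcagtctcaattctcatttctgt
Irgm1 (chr11:48871401-48871490, - strand): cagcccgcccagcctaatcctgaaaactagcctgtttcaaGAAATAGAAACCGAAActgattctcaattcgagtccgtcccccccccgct
Ifit3 (chr19:34583333-34583422, + strand): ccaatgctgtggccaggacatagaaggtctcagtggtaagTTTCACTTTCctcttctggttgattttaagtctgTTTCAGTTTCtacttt
Matches that overlap run together, as in Isg15, where 3 of them form 1 block, and in Bst2 and Irgm1, where 2 do. In H2-T23 and Ifit3 the core stands on the opposite strand.

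Genes of the interferon response, from a list chosen with earlier results of these data known, were higher throughout. All 50 listed interferon-stimulated genes were tested and all 50 were called higher, with a median log2 difference of 2.53 against 0.023 over all genes. Their summed level ran from 544 to 2453 RPKM (median 1092) in old and from 91.1 to 161 RPKM (median 99.8) in young trained mice, and 14 of the 50 had a young mean under 0.5 RPKM. Irf7, the factor that amplifies interferon production, stood at 9.78, 49.2 and 91.6 RPKM in old and 0.797, 1.04 and 1.36 RPKM in young trained mice, a log2 difference of 4.55 (SE 0.43, adjusted p = 3.68e-05) from limma. Isg15, a ubiquitin-like protein that is joined to other proteins in antiviral states, had 9.4, 39.9 and 176 RPKM in old and 0.951, 1.43 and 2.82 RPKM in young trained mice, a log2 difference of 4.23 (SE 0.55, adjusted p = 0.000299). In Irf7 and Isg15, which were chosen for no overlap, all old mice were above all young mice and were spread over a wider range. Over the list, old mice lay wholly above young mice in 48 of the 50 genes, beside 6.87% over all genes.

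Oasl2, which belongs to the family of oligoadenylate synthetases that sense viral RNA, had 13.3, 40.1 and 123.5 RPKM in old and 0.687, 1.01 and 1.18 RPKM in young trained mice, a log2 difference of 4.74 (SE 0.40, adjusted p = 1.4e-05). Ifi27l2a, an interferon-induced protein, had 5.29, 37.1 and 55.9 RPKM in old and 0.205, 0.325 and 0.975 RPKM in young trained mice, a log2 difference of 4.94 (SE 0.47, adjusted p = 3.62e-05). The lowest old mouse lay above the highest young mouse in both genes, which was a condition of their choice. Ifi27l2a had a young mean under 0.5 RPKM and passed the filter through the old mice alone, so that it had to differ. Igtp and Irgm1, GTPases that attack the vacuoles of intracellular pathogens, differed by 4.56 and 3.76 on the log2 scale, and Gbp3, a guanylate-binding protein of the same defence, by 3.40. Ifit3, which blocks translation of viral RNA, differed by 3.76, Rtp4 by 3.54 and Bst2, which tethers budding virus to the cell surface, by 4.12. In all of these genes the groups did not overlap, which for Igtp, as for Oasl2 and Ifi27l2a, was a condition of its choice.

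**Figure D2:**
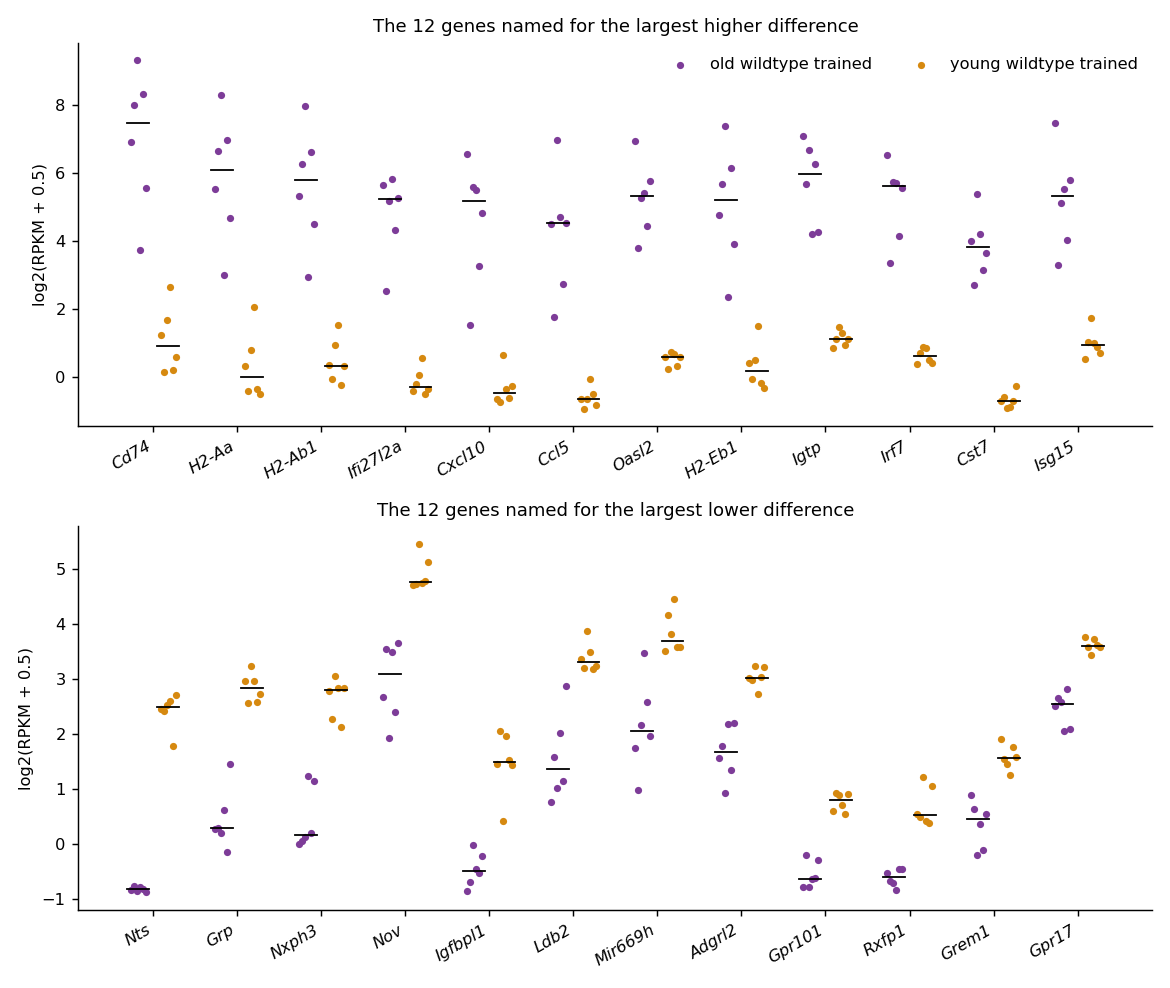
Each point is 1 mouse, with the 6 old trained mice left of the 6 young trained mice for each gene and the median as a black line. The vertical axis is log2(RPKM + 0.5). The groups do not overlap in any of the 24 genes, which were chosen for that, and the old mice spread more widely in the higher genes than the young mice do.

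Antigen presentation was higher in both of its arms. MHC class I shows peptides from inside the cell, cut by the immunoproteasome, to CD8 T cells. Of 18 tested genes of this arm, 16 were higher and 0 lower, with a median log2 difference of 2.54, and Calr and Pdia3, chaperones of general use, were the 2 not called. B2m, the light chain of every class I molecule, stood at 549.7, 859.7 and 1543 RPKM in old and 87.9, 98.4 and 114.98 RPKM in young trained mice. This difference of 3.11 (SE 0.22, adjusted p = 5.1e-06 from limma) concerns one of the more abundant transcripts of the tissue. The heavy chain H2-D1 (chromosome 17, 35263094 to 35267497) had 144, 229 and 462 RPKM in old and 12.1, 14.7 and 18.8 RPKM in young trained mice, a log2 difference of 3.93 (SE 0.23, adjusted p = 1.35e-06). H2-K1, the other classical heavy chain of this strain, had 125.96, 190.3 and 462 RPKM in old and 11.2, 13 and 17.8 RPKM in young trained mice, a log2 difference of 3.85 (SE 0.27, adjusted p = 5.11e-06). The nonclassical genes H2-Q4 and H2-T23 differed by 4.02 and 3.98. Genes of this family are close in sequence, and only reads placed uniquely were kept, so the share of each member is uncertain.

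MHC class II shows peptides from outside the cell to CD4 T cells and is carried by microglia in activated states, by macrophages and by B cells. All 10 genes tested were higher (median 2.43), and 9 of them did not overlap between the groups, but 3 of the 10 had a young mean under 0.5 RPKM and passed the filter through the old mice alone. Cd74, the chain that guards the peptide groove until it is loaded, had the largest difference among the named genes, at 12.9, 189 and 641 RPKM in old and 0.619, 1.44 and 5.76 RPKM in young trained mice, a log2 difference of 5.90 (SE 0.82, adjusted p = 0.000505). H2-Aa stood at 7.6, 73.2 and 315 RPKM in old and 0.209, 0.529 and 3.7 RPKM in young trained mice, a log2 difference of 5.53 (SE 0.77, adjusted p = 0.000498). H2-Ab1 and H2-Eb1, which complete the class II dimers, differed by 5.12 and 4.73. Class II levels were uneven between old mice, with Cd74 at 641 RPKM in mouse OWT-BV-106C and 12.9 RPKM in mouse OWT-BV-109C. The whole list summed to 1938 and 293 RPKM in these mice and to 54.0 to 74.7 RPKM in young trained mice. It includes the cathepsin Ctss, which is also counted among the cathepsins below. Ctss made 512 and 247 RPKM of the sums of these old mice and 45.0 to 55.4 RPKM in young trained mice. Of the genes with a RefSeq position that were higher by at least 1, 43 lay on chromosome 17, which holds the MHC, or 9.35% of them, against 4.76% of all tested genes. Other chromosomes also departed from their share, with chromosome 19 at 6.52% against 3.48% and chromosome 2 at 5.22% against 7.97%.

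Complement genes were higher in 14 of 17 tested members and lower in none, with a median log2 difference of 1.56, but 6 of the 17, C3 among them, had a young mean under 0.5 RPKM and had to be higher to pass the filter. C4b (chromosome 17, 34728139 to 34743902), which marks targets after C1q has bound, had the smallest p of all genes. It stood at 46.1, 76.4 and 88.8 RPKM in old and 3.24, 4.43 and 4.65 RPKM in young trained mice, a log2 difference of 3.94 (SE 0.14, adjusted p = 1.35e-08). All 6 old mice lay close together in C4b and far above the 6 young mice. The 3 chains of C1q, made by microglia, moved alike, with C1qa at 129.6, 161 and 354 RPKM in old and 28.7, 33 and 37.8 RPKM in young trained mice, a log2 difference of 2.42 (SE 0.20, adjusted p = 1.04e-05), and C1qb and C1qc differing by 2.17 and 2.17. C3, the hub of the cascade, stood at 1.1, 4.27 and 25.2 RPKM in old and 0.217, 0.357 and 0.705 RPKM in young trained mice, a log2 difference of 2.53 (SE 0.53, adjusted p = 0.00733), so that its level was low in most old mice while it lay above every young mouse. Cd59a and Cd55, which restrain complement, were among the members not called, at 0.19 and -0.49.

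Chemokines, the proteins that draw leukocytes into tissue, were higher in 13 of 22 tested genes and lower in 1, Ccl25. Of the 22, 9 had a young mean under 0.5 RPKM and passed the filter through the old mice alone, Cxcl10, Ccl5 and Cxcl13 among them. Cxcl10, a ligand of CXCR3 on activated T cells, had 2.42, 36.7 and 94.5 RPKM in old and 0.109, 0.223 and 1.06 RPKM in young trained mice, a log2 difference of 4.87 (SE 0.69, adjusted p = 0.000587). Ccl5, which T cells and microglia secrete, had 2.94, 22.5 and 124.5 RPKM in old and 0.0265, 0.144 and 0.465 RPKM in young trained mice, a log2 difference of 4.79 (SE 0.66, adjusted p = 0.000478). In both genes the lowest old mouse was above the highest young mouse, a condition of their choice, although it was far from the highest old mouse. Ccl12, Cxcl13 and Ccl6 differed by 3.81, 3.95 and 0.96. Cxcl13, which draws B cells, was listed at 0 in most young mice, so that its difference depends on the added 0.5.

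Genes of T, NK and B lymphocytes were near 0 in young trained mice, and 9 of 27 in the table did not pass the filter. Of the 18 tested, 17 were higher, but 15 of the 18 had a young mean under 0.5 RPKM and passed the filter through the old mice, so this count is a description, and it was 10 with all 40 libraries in 1 fit. Cd8a, the coreceptor of cytotoxic T cells, had 0.258, 0.827 and 3.02 RPKM in old and 0, 0.0119 and 0.0132 RPKM in young trained mice, and Cd3e, part of the T cell receptor complex, had 0.287, 0.689 and 3.91 RPKM in old and 0, 0.0136 and 0.112 RPKM in young trained mice. Cd3g, of the same complex, was listed at 0 in every young mouse and stood at 0.579, 1.4 and 8.62 RPKM in old mice. Levels of this size correspond to few transcripts, and all 6 old mice were above all 6 young mice in each of these genes. Old mouse OWT-BV-106C was the highest in every one, with Cd3e at 3.91 RPKM against 0.945 RPKM in the next old mouse. Jchain, which joins secreted antibodies in plasma cells and was chosen here after its values were seen, stood at 437 RPKM in mouse OWT-BV-106C and at 0.365 to 7.87 RPKM in the other 5 old mice, against 0.0532, 0.0994 and 0.133 RPKM in young trained mice. Cd52, a surface protein of lymphocytes that microglia also express, had 15.5, 38.2 and 145 RPKM in old and 1.63, 1.9 and 2.54 RPKM in young trained mice, a log2 difference of 4.01 (SE 0.38, adjusted p = 3.7e-05).

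Markers of microglia at rest were higher in 10 of 13 genes and lower in 1 (median 0.81). Genes of activated microglia were higher in 19 of 22 and lower in none (median 1.51), 5 of them with a young mean under 0.5 RPKM. Cst7 and Clec7a below had such a young mean and passed the filter through the old mice alone, so that they had to differ. Tmem119 stood at 22.8, 24.4 and 32.3 RPKM in old and 8.6, 9.61 and 10.7 RPKM in young trained mice, a log2 difference of 1.40 (SE 0.094, adjusted p = 4.19e-06), and Cx3cr1, the receptor for neuronal fractalkine, at 20.5, 21 and 33 RPKM in old and 11.4, 12.6 and 13.9 RPKM in young trained mice, a log2 difference of 0.81 (SE 0.10, adjusted p = 0.000297). P2ry12, a purine receptor that resting microglia use to sense damage, went the other way, at 14.4, 15.9 and 19 RPKM in old and 16.9, 17.9 and 19.7 RPKM in young trained mice, a log2 difference of -0.16 (SE 0.065, adjusted p = 0.115). That call was lost without any 1 of 8 mice. Cst7, which encodes the protease inhibitor cystatin F of activated microglia, had 6.09, 13.8 and 41.5 RPKM in old and 0.038, 0.117 and 0.34 RPKM in young trained mice, a log2 difference of 4.53 (SE 0.35, adjusted p = 8.9e-06). Trem2, a lipid receptor of microglia, differed by 1.8, Clec7a, a receptor for fungal glucans, by 2.64 and Csf1, the growth factor of microglia, by 1.01. Aif1, whose protein IBA1 is the common stain for microglia, differed by 2.18. The old mice were thus higher in microglial markers as well as in interferon and MHC genes, and the part of microglial number in those differences was not tested.

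Receptors that microglia use to read their surroundings were higher in 16 of 16 tested genes (median 1.18), 6 of them with a young mean under 0.5 RPKM. Tlr2 was among these 6, which passed the filter through the old mice alone. Fcgr1, the high-affinity receptor for antibody, differed by 2.28, Fcgr2b, the inhibitory receptor, by 2.21, Fcgr3 by 1.44 and the shared signalling chain Fcer1g by 1.88. Tlr2, a receptor for bacterial lipoproteins, stood at 1.19, 4.76 and 10.9 RPKM in old and 0.274, 0.345 and 0.765 RPKM in young trained mice, a log2 difference of 2.39 (SE 0.36, adjusted p = 0.000787). Of the 29 cathepsins and lysosomal proteins, 23 were higher and 0 lower (median 0.64), or 14 higher with all 40 libraries in 1 fit. Ctss, the cathepsin that trims Cd74, had 206, 262 and 512 RPKM in old and 45, 49.1 and 55.4 RPKM in young trained mice, a log2 difference of 2.47 (SE 0.18, adjusted p = 5.64e-06). Ctsd, which most cells use, had 209, 413 and 734 RPKM in old and 149, 158 and 262 RPKM in young trained mice, a log2 difference of 1.21 (SE 0.28, adjusted p = 0.0112), and there the groups overlapped. Ctsz and Grn, both abundant in microglial lysosomes, differed by 1.68 and 1.49. Lamp1, a membrane protein of every lysosome, did not pass, at 0.19 (adjusted p = 0.302).

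**Figure D3:**
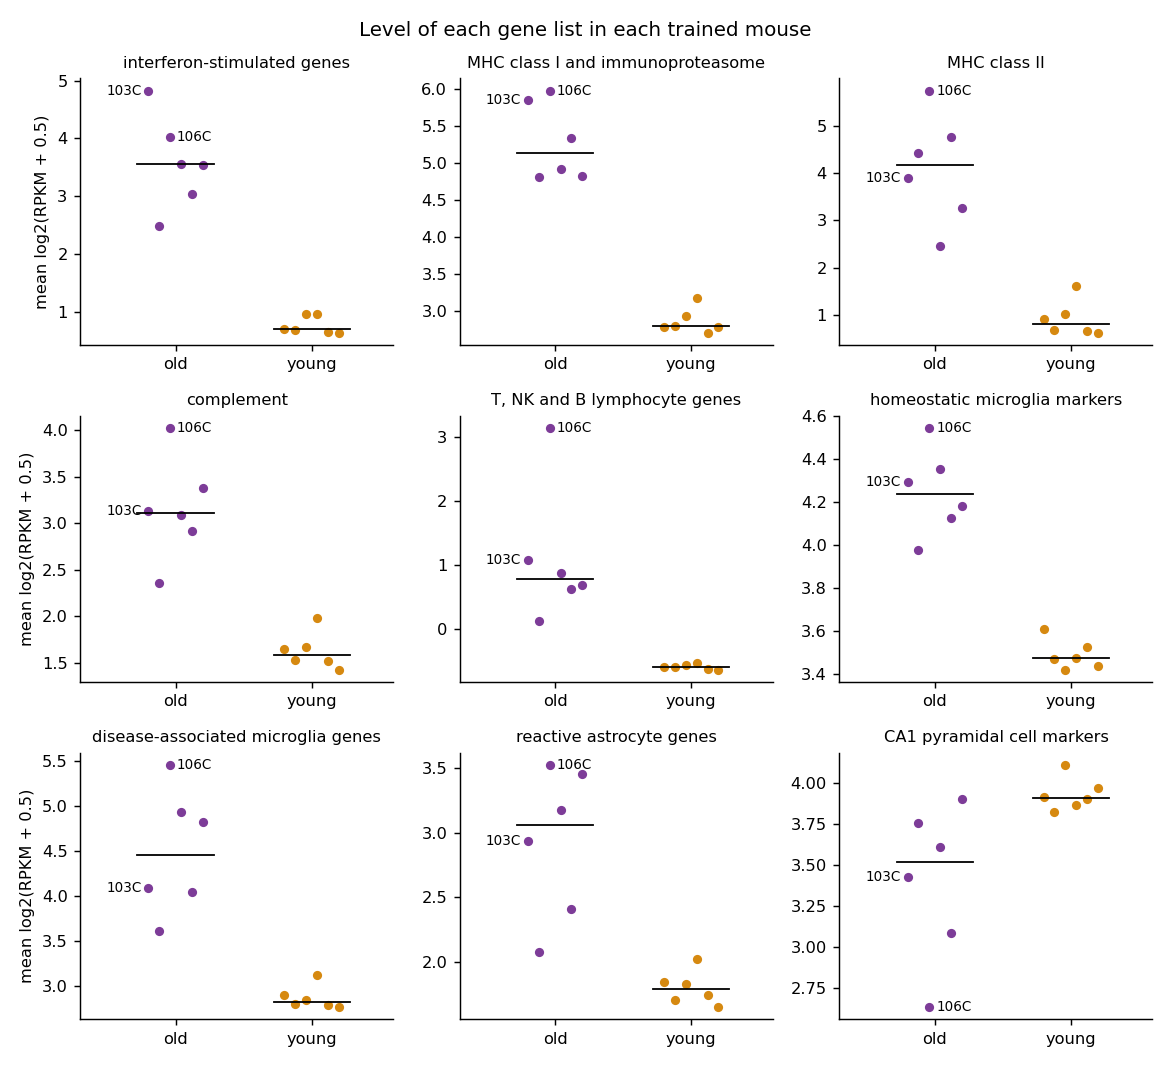
Each point is 1 mouse and gives the mean of log2(RPKM + 0.5) over the tested genes of a list, with old trained mice on the left, young trained mice on the right and the median as a black line. Old mice OWT-BV-103C and OWT-BV-106C are named. Old and young mice do not overlap in the 8 immune, microglial and astrocytic lists, while the CA1 markers are lowest in OWT-BV-106C and overlap between the groups. Genes that passed the filter through the old mice alone enter the means, 15 of 18 for lymphocytes, 14 of 50 for interferon and 6 of 17 for complement. The gap in such lists, above all that of lymphocytes, was in part fixed by the filter. The homeostatic microglia list held 0 such genes.

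Genes of reactive astrocytes were higher, while general astrocyte markers went both ways. Of 21 tested genes of reactive astrocytes, 16 were higher and 0 lower (median 1.16), whereas of 13 general astrocyte markers 3 were higher and 3 lower (median -0.023), or 5 lower without old mouse OWT-BV-106C. Of the 21 reactive genes, 4 had a young mean under 0.5 RPKM and passed the filter through the old mice alone, Lcn2 among them. Gfap, the intermediate filament used to stain reactive astrocytes, had 189.9, 405 and 471 RPKM in old and 91.8, 99.8 and 111.1 RPKM in young trained mice, a log2 difference of 1.76 (SE 0.20, adjusted p = 0.000152). Serpina3n, an acute-phase protease inhibitor, had 39.1, 106.8 and 136 RPKM in old and 24.5, 28.2 and 31.8 RPKM in young trained mice, a log2 difference of 1.61 (SE 0.28, adjusted p = 0.00195). Lcn2, an iron-carrier binding protein of injured tissue, had 0.821, 6.59 and 14.6 RPKM in old and 0, 0.0677 and 0.0966 RPKM in young trained mice, a log2 difference of 3.19 (SE 0.52, adjusted p = 0.00155). In Gfap, Serpina3n and Lcn2 the groups did not overlap, while in Vim, another filament gene, they did, with 26.9, 78.3 and 198 RPKM in old and 22.5, 27.4 and 38.9 RPKM in young trained mice, a log2 difference of 1.44 (SE 0.39, adjusted p = 0.0271). Aqp4, the water channel of astrocyte endfeet, and Aldh1l1 were higher by 0.57 and 0.58, Slc1a2, the main glutamate transporter, was lower at -0.34, and its relative Slc1a3 was not called at -0.094 (adjusted p = 0.48).

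Endothelial markers went in both directions, with 4 of 18 higher, a share near that over all genes, and 4 lower. The 4 lower were 2 without old mouse OWT-BV-103C or young mouse YWT-BV-1915, and all 40 libraries in 1 fit gave 2 higher and 1 lower. Icam1, the adhesion molecule on which leukocytes crawl, had 2.35, 5.94 and 13.5 RPKM in old and 0.64, 0.789 and 0.983 RPKM in young trained mice, a log2 difference of 2.20 (SE 0.31, adjusted p = 0.000512). Vwf, which rises in inflamed vessels, was higher by 0.87, and Tek and Mfsd2a, a receptor and a lipid transporter of quiescent vessels, were lower at -0.39 and -0.26. Cldn5, the tight junction protein of brain vessels, was not called at 0.15 (adjusted p = 0.347). Of 24 genes of collagen and fibroblasts 3 were higher and 0 lower (median 0.11). Neither the 13 genes of the choroid plexus nor the 2 red blood cell genes tested held a call, and Ttr of the choroid plexus ran from 0 to 8260.3 RPKM in old and from 9.46 to 9029.7 RPKM in young trained mice.

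Among the lower genes, neuropeptides and secreted factors of neurons had the largest differences. Nts (chromosome 10, 102481756 to 102490418), the precursor of neurotensin, had 0.0422, 0.0638 and 0.0913 RPKM in old and 2.97, 5.13 and 6.06 RPKM in young trained mice, a log2 difference of -3.24 (SE 0.13, adjusted p = 2.7e-08). It was near 0 in every old mouse, and like Igfbpl1, Gpr101 and Rxfp1 below it passed the filter on low values through the young mice alone. Grp, gastrin-releasing peptide, had 0.409, 0.718 and 2.24 RPKM in old and 5.41, 6.72 and 8.97 RPKM in young trained mice, a log2 difference of -2.39 (SE 0.22, adjusted p = 3.42e-05). Nxph3, a ligand of neurexins, had 0.5, 0.619 and 1.85 RPKM in old and 3.86, 6.52 and 7.87 RPKM in young trained mice, a log2 difference of -2.20 (SE 0.25, adjusted p = 0.000127). Nov, a secreted matricellular protein also named CCN3, had 3.33, 8.34 and 12.2 RPKM in old and 25.9, 26.9 and 43.7 RPKM in young trained mice, a log2 difference of -1.98 (SE 0.28, adjusted p = 0.000608). For these 4 genes the highest old mouse stayed below the lowest young mouse, which was a condition of their choice.

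Several of the other genes with the largest lower differences encode receptors and regulators of neurons. Ldb2, a cofactor of LIM transcription factors, had 1.2, 2.11 and 6.88 RPKM in old and 8.59, 9.41 and 14.2 RPKM in young trained mice, a log2 difference of -1.83 (SE 0.30, adjusted p = 0.00156). Adgrl2, an adhesion receptor at synapses of the CA1 region, differed by -1.37, Gpr101, an orphan receptor, by -1.32, Rxfp1, the receptor of relaxin, by -1.30 and Grem1, an antagonist of BMP signals, by -1.23. Mir669h, a microRNA gene measured here in libraries of polyadenylated RNA, differed by -1.71. Of 18 tested genes of hippocampal neuropeptides, 5 were lower and 1 higher (median -0.14). Sst, somatostatin, the peptide of a class of dendrite-targeting interneurons, had 110.4, 162 and 241 RPKM in old and 268, 274 and 299 RPKM in young trained mice, a log2 difference of -0.80 (SE 0.14, adjusted p = 0.00267), with no overlap between the groups. Cartpt was lower at -0.57, and Penk, enkephalin, was not called at -0.12 (adjusted p = 0.675). Among 13 interneuron markers, 3 were higher and 2 lower. Gad1, the enzyme that makes GABA, and Pvalb, parvalbumin, were not called at 0.15 (adjusted p = 0.197) and 0.10 (adjusted p = 0.774). Htr3a and Cnr1 were higher by 0.50 and 0.34, and Dlx1 was lower at -0.63.

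Of 18 tested genes of adult neurogenesis and proliferation, 6 were lower, 1 was higher and 11 were not called (median -0.045), and the 6 did not overlap between the groups. Without old mouse OWT-BV-104C, 4 were higher. Dcx, the microtubule protein that marks newborn neurons, had 0.805, 0.999 and 1.11 RPKM in old and 1.64, 1.97 and 2.36 RPKM in young trained mice, a log2 difference of -0.74 (SE 0.089, adjusted p = 0.000178). Igfbpl1, which is expressed in the same cells, had 0.0512, 0.212 and 0.485 RPKM in old and 0.838, 2.31 and 3.67 RPKM in young trained mice, a log2 difference of -1.94 (SE 0.25, adjusted p = 0.000258). Sox11 and Dpysl3, genes of immature neurons, were lower at -0.43 and -0.61. Another 6 of the 24 listed genes, Mki67, Cdk1 and Ccnb1 of the cell cycle among them, were too low to be tested.

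Of 16 genes of oligodendrocyte precursors and cells at the onset of myelination, 9 were lower and 0 higher (median -0.28), or 5 lower with depth as a covariate or with mice OWT-BV-103C and OWT-BV-106C left out together. Gpr17, a receptor of the stage just before myelination, had 3.67, 5.36 and 6.6 RPKM in old and 10.4, 11.7 and 13.2 RPKM in young trained mice, a log2 difference of -1.17 (SE 0.13, adjusted p = 8.66e-05), and Pdgfra, the growth factor receptor of precursors, had 6.07, 6.65 and 7.84 RPKM in old and 8.43, 8.87 and 10.2 RPKM in young trained mice, a log2 difference of -0.38 (SE 0.071, adjusted p = 0.00365). Neu4 and Fyn were lower at -0.49 and -0.21, and Cspg4, another precursor marker, was not called at 0.10 (adjusted p = 0.412). In the mature lineage, 8 of 17 markers were lower and 1, Trf, higher by 0.81, with Mbp, the main protein of compact myelin, at 439, 897 and 1179 RPKM in old and 991, 1331 and 1564 RPKM in young trained mice, a log2 difference of -0.79 (SE 0.25, adjusted p = 0.0475). Mobp, Mal and Mog were lower at -0.78, -0.76 and -0.65. The groups overlapped in every one of these 17 markers. The 8 lower calls were 0 with depth as a covariate or with mice OWT-BV-103C and OWT-BV-106C left out together, and ran from 3 to 10 without any 1 mouse, falling to 3 without OWT-BV-103C or YWT-BV-1913 and to 4 without OWT-BV-104C, OWT-BV-106C, YWT-BV-1906, YWT-BV-1923, YWT-BV-1924 or YWT-BV-1935. The myelin markers summed to 1287 and 1451 RPKM in old mice OWT-BV-104C and OWT-BV-103C, 2314 to 3458 RPKM in the other 4 old mice and 2478 to 3874 RPKM in young trained mice.

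Markers of the subfields of the hippocampus did not move as one. Of 10 markers of CA1 pyramidal cells, 6 were lower and 0 higher (median -0.62), and their summed level was 81.3 RPKM in old mouse OWT-BV-106C and 108.2 RPKM in old mouse OWT-BV-116C, 152 to 206 RPKM in the other 4 old mice and 191 to 239 RPKM in young trained mice. Man1a, Mpped1, Gpr161, Wfs1 and Fibcd1 were lower at -0.60, -0.92, -0.90, -0.64 and -0.67, and only Man1a did not overlap. The call of Wfs1 was lost without young mouse YWT-BV-1935 and that of Fibcd1 without any 1 of 6 mice. Without mice OWT-BV-103C and OWT-BV-106C, 4 CA1 markers were lower. Of 10 markers of CA3, 5 were higher and 1 lower (median 0.28), with Bok, Homer3 and Spock1 higher by 0.69, 0.31 and 0.32 without overlap, and Cpne7 lower at 11.7, 16.4 and 28.7 RPKM in old and 34.2, 35.9 and 47.1 RPKM in young trained mice, a log2 difference of -1.06 (SE 0.20, adjusted p = 0.00408). Dentate granule cell markers had 5 of 13 higher and 1 lower, among them C1ql2 and Plk5 at 0.51 and 0.57. These 5 were 2 without old mouse OWT-BV-106C, 3 without old mouse OWT-BV-103C or young mouse YWT-BV-1915 or YWT-BV-1923, and 0 without OWT-BV-103C and OWT-BV-106C together. Of 10 neocortex markers, Tle4 was higher by 0.18 and Fezf2, a factor of deep-layer projection neurons, was lower at 5.48, 6.41 and 6.67 RPKM in old and 10.2, 11.6 and 14.9 RPKM in young trained mice, a log2 difference of -0.86 (SE 0.081, adjusted p = 3.53e-05). The neocortex markers summed to 74.3 to 123.8 RPKM in old and 76.9 to 104.95 RPKM in young trained mice. With all 40 libraries in 1 fit, 1 CA1 marker was lower, 0 CA3 markers were higher and 0 dentate markers were higher. Of 10 markers of thalamus and habenula 1 was higher, or 4 without young mouse YWT-BV-1923, and of 7 of striatum and septum 2 were higher and 1 lower. Whether the tissue taken differed between the groups was not tested.

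Immediate-early genes are those that neurons switch on within minutes of experience. Of 41 such genes, 16 were higher and 2 lower 60 min after training, with a median log2 difference of 0.13, but 2 higher and 1 lower with all 40 libraries in 1 fit. Without old mouse OWT-BV-104C, 4 were lower. In the homecage, without training, 20 were higher and 2 lower (median 0.31), beside 31.0% and 18.3% over all genes there. Fos had 6.12, 10.3 and 13.7 RPKM in old and 4.33, 5.32 and 6.68 RPKM in young trained mice, a log2 difference of 0.77 (SE 0.18, adjusted p = 0.0133), and it differed by 1.40 in the homecage. Egr1 and Arc, whose products act in synaptic plasticity, were not called, at 0.089 (adjusted p = 0.637) and -0.27 (adjusted p = 0.182). Nr4a2, an orphan nuclear receptor of memory formation, was lower at 6.61, 9.66 and 12.7 RPKM in old and 12.7, 15.3 and 16.2 RPKM in young trained mice, a log2 difference of -0.61 (SE 0.12, adjusted p = 0.00489). Nr4a1 of the same family was lower at -0.29 (adjusted p = 0.147), a call lost without any 1 of 9 mice. Gadd45b, Maff and Dusp4 were higher by 0.60, 0.84 and 0.34. Maff had a young mean under 0.5 RPKM and passed the filter through the old mice alone.

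Of 23 circadian clock genes, 4 were higher and 3 lower (median 0.064), not far from the 18.3% higher and 8.98% lower over all genes. Per1, the period gene that the study followed up, had 15.6, 16.7 and 18.4 RPKM in old and 14.7, 15.8 and 17 RPKM in young trained mice, a log2 difference of 0.084 (SE 0.051, adjusted p = 0.301), and was not called, while in the homecage it was higher in old mice by 0.29 (adjusted p = 0.0141). Per2 and Nr1d1 were not called at 0.0052 (adjusted p = 0.975) and -0.052 (adjusted p = 0.585). Npas2 and Arntl, which pair to activate the clock, were lower at -0.55 and -0.37, and Bhlhe41, a repressor of the clock, was higher by 0.35. Of 20 genes of glucocorticoid signalling, 1 was higher, 1 lower and 18 not called, and the shares over all genes were larger in both directions. Tsc22d3, the lower gene, had 15.7, 20.9 and 22.3 RPKM in old and 21.1, 25.4 and 37.5 RPKM in young trained mice. Its log2 difference was -0.40 (SE 0.13, adjusted p = 0.0522 from limma). That call was lost with depth as a covariate and with mice OWT-BV-103C and OWT-BV-106C left out together. Cdkn1a, which also answers to p53 and marks arrested cells, was higher at 4.81, 19.8 and 32.2 RPKM in old and 2.98, 3.63 and 4.47 RPKM in young trained mice, a log2 difference of 1.86 (SE 0.41, adjusted p = 0.00891). Nr3c1, the glucocorticoid receptor, and Fkbp5, its target, were not called at 0.048 (adjusted p = 0.592) and -0.035 (adjusted p = 0.684).

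Hdac3, which these old mice retain, had 28.1, 30.3 and 33.1 RPKM in old and 31.1, 32.4 and 35.5 RPKM in young trained mice, a log2 difference of -0.12 (SE 0.047, adjusted p = 0.106), a call lost without any 1 of 6 mice. In its complex and class, 1 of 16 genes was higher and 2 were lower, Hdac3 and Hdac2 at -0.19. Over all genes, 18.3% were higher and 8.98% lower, and the counts of this paragraph are to be read against these shares. Of 20 genes of CREB, its coactivators and acetyltransferases, 2 were higher, with Crtc2 at 0.26, or 4 without old mouse OWT-BV-109C. Glutamate receptor subunits were lower in 7 of 24 genes and higher in 1 (median -0.13), or 11 lower without young mouse YWT-BV-1923, and the main subunits Gria1 and Grin1 were not called at -0.14 (adjusted p = 0.32) and -0.05 (adjusted p = 0.762). Grin3a, Grik1, Grm3 and Grik3 were lower at -0.49, -0.43, -0.52 and -0.32 without overlap between the groups. GABA receptor subunits were lower in 5 of 14 genes and higher in 0 (median -0.16), with Gabra2 and Gabra3 at -0.39 and -0.97. CaM kinases and postsynaptic scaffolds had 3 of 23 higher and 3 lower, with Camk2a not called at -0.092 (adjusted p = 0.656) and Camk2d higher by 0.71, and 7 were lower without young mouse YWT-BV-1923. Potassium channels had 8 of 32 higher and 1 lower, with Kcnc1 at 0.33, or 4 and 2 after quantile normalization. Calcium and sodium channels had 3 of 29 higher and 5 lower, with Cacng2 at 0.39 and Cacng3 at -0.35. These 5 were 8 without old mouse OWT-BV-104C or young mouse YWT-BV-1923 and 3 without young mouse YWT-BV-1906 or YWT-BV-1913. With all 40 libraries in 1 fit, glutamate receptors had 3 lower, GABA receptors 2 lower, potassium channels 2 higher and calcium and sodium channels 3 lower.

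The counts of this paragraph stand beside 18.3% higher and 8.98% lower over all genes. Cytosolic ribosomal protein genes were higher in 19 of 75 and lower in 1 (median 0.12), with Rpl38 and Rps2 at 0.66 and 0.38. Quantile normalization gave 17 higher and 6 lower (median 0.027). With mice OWT-BV-127C and YWT-BV-1923 left out together, 29 ribosomal genes were higher and 1 lower. Nuclear subunits of oxidative phosphorylation had 4 of 79 higher and 3 lower (median -0.014), and 3 higher and 15 lower after quantile normalization. Without young mouse YWT-BV-1923 these subunits had 16 higher (median 0.050), and without old mouse OWT-BV-109C 2 higher and 7 lower. Leaving out young mouse YWT-BV-1935, or YWT-BV-1924, or YWT-BV-1913, or YWT-BV-1906 alone gave 2 higher. Protocadherins were higher in 19 of 60 and lower in 3, with Pcdhb9 and Pcdhb2 of the beta cluster at 0.77 and 0.72, but 9 higher and 10 lower after quantile normalization, and members of the cluster are close in sequence. Without young mouse YWT-BV-1923, 8 protocadherins were lower. Of 23 heat shock proteins and cochaperones 2 were higher, with Bag3 at 0.57, or 2 higher and 5 lower with median-ratio scaling, 4 higher without old mouse OWT-BV-104C or OWT-BV-116C and 5 higher without young mouse YWT-BV-1923. Of 22 genes of cholesterol synthesis and uptake 5 were lower and 1, Srebf2, higher by 0.20, with Sc5d lower at -0.24. These 5 were 3 without old mouse OWT-BV-106C and 8 without old mouse OWT-BV-116C. With all 40 libraries in 1 fit, ribosomal genes had 3 higher, protocadherins 9 higher and cholesterol genes 1 lower. Xist, transcribed from the inactive X chromosome of females, ran from 0.0133 to 29 RPKM in old and from 0.0659 to 33.5 RPKM in young trained mice, and none of the 5 sex-linked genes was called.

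**Figure D4:**
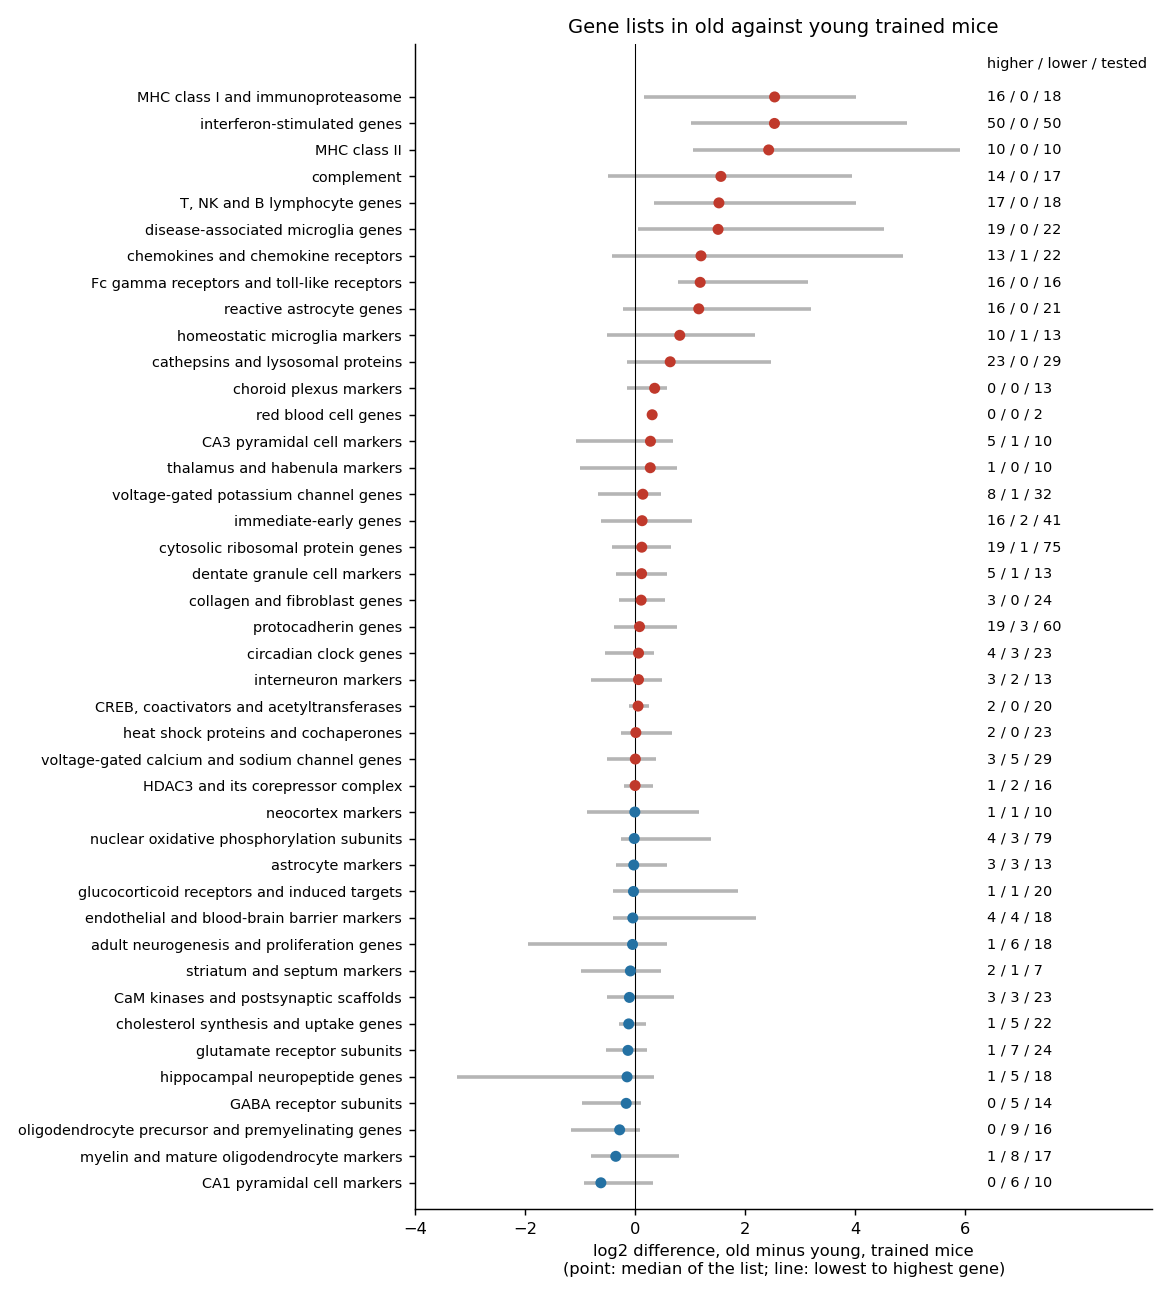
Each row is a list of genes. The point is the median log2 difference between old and young trained mice over the tested genes of the list, the line runs from its lowest to its highest gene, and the numbers at the right count genes higher, genes lower and genes tested. The immune, microglial and reactive lists have medians from 0.64 to 2.54, and most neuronal lists lie near the 0.023 of all genes.

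The other 12 wildtype mice, taken from the homecage, showed the same genes at the ends of the scale. There 4335 genes (31.0%) were higher and 2553 (18.3%) lower in old than in young mice. Of the 2556 genes higher after training, 2129 were also higher in the homecage, which is 83.3% of the first set and 49.1% of the second. Of the 1256 lower after training, 911 were also lower in the homecage, which is 72.5% of the first set and 35.7% of the second. Opposite calls were made for 6 and 3 genes. Of the 463 genes higher by at least 1 after training, 462 were called higher in the homecage too, and of the 32 lower by at least 1, 29 were called lower. In the 463 genes the median difference was 1.61 after training and 2.42 in the homecage, and only 20 of them differed more after training. Those 463 genes were chosen on the values after training, so this comparison is a description. Cd74 differed by 6.65 in the homecage, C4b by 3.91, Nts by -3.23 and Lcn2 by 5.69, the last against 3.19 after training.

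Homecage levels were uneven between old mice as well. The interferon-stimulated genes summed to 144 to 3942 RPKM (median 2136) in old and 88.3 to 167 RPKM (median 128.4) in young homecage mice, so the lowest old homecage mouse, OWT-HC-110A, lay within the range of the young mice. CA1 markers had 0 of 10 genes higher and 3 lower in the homecage and CA3 markers 0 higher and 3 lower, where CA3 had 5 higher after training. Old HDAC3flox/flox trained mice share the age and the infusion with the old wildtype mice and lack Hdac3 in the cells that Cre reached. They had 459 to 2798 RPKM (median 914) for the interferon-stimulated genes. The MHC class II list, Ctss included, summed to 191 to 4836 RPKM (median 303) in them.

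**Figure D5:**
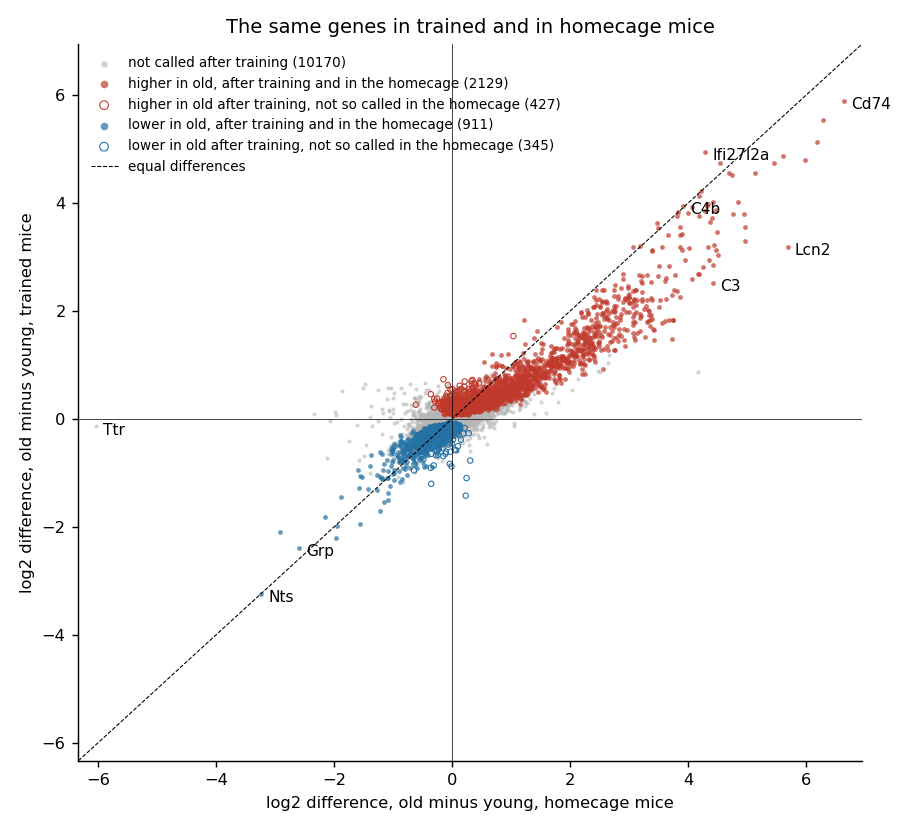
Each point is 1 gene, with the log2 difference between old and young homecage mice on the horizontal axis and between old and young trained mice on the vertical axis. Filled red and blue points were called in the same direction in both comparisons (2129 and 911), open ones only after training, and grey ones not after training. Most higher genes lie below the line of equal differences, among them Lcn2 and C3, while Nts lies on it.

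Whether the difference between old and young itself differed between trained and homecage mice was tested as an interaction over the 24 wildtype libraries. No gene was called (0.00% higher and 0.00% lower of 13982), with a smallest adjusted p of 0.507 from limma, while 474 genes were higher and 903 lower at an unadjusted p under 0.05. The count rested on 1 library, since 522 genes were called higher and 1731 lower without old homecage mouse OWT-HC-110A, and library weights gave 927 and 2302. Il34, a ligand of the microglial receptor CSF1R that neurons make, was among the genes with the smallest p. It had 21.7, 23.7 and 25.4 RPKM in old and 16.6, 17.5 and 18.4 RPKM in young trained mice, a log2 difference of 0.42 (SE 0.044, adjusted p = 7.59e-05), and differed by -0.037 in the homecage (adjusted p = 0.773), which gives an interaction of 0.46 (adjusted p = 0.507). Pip4k2c, a lipid kinase, differed by 0.17 after training and -0.13 in the homecage, and Tmem114 by 0.46 and -0.36. Mapk11, a p38 kinase, and Rab15, a regulator of endosome recycling, differed by 0.15 and 0.0004 after training and by -0.30 and -0.51 in the homecage. In the other direction, Nat8, Smg6, Pprc1, Senp1 and Fnip2 differed by -0.20, -0.033, 0.13, -0.029 and 0.16 after training, none of them called, and by 0.43, 0.17, 0.47, 0.40 and 0.57 in the homecage, all called higher.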

How the data were processed

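RNA of the dorsal hippocampus was sequenced from poly(A)-selected libraries. Reads were processed by the authors with CASAVA 1.8.2 and aligned to mm10, and the deposited values are RPKM per gene, already scaled by gene length and mapped reads. Counts were not used here, so depth was estimated from the smallest steps between low RPKM values and is approximate. A second deposited table with p-values and fold changes of the authors' own comparisons was left unused.

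From these RPKM values, genes with a mean of at least 0.5 over the 12 trained wildtype libraries were kept and log2(RPKM + 0.5) was tested with limma 3.58.1 (R 4.3.3, trend over mean level, two-sided), old minus young, with Benjamini-Hochberg adjustment over all 13982 genes. Fold changes on this scale understate the change of low genes. A call needs p under 0.05 and adjusted p under 0.15. The homecage comparison and the interaction used the same genes. Each library is 1 mouse, and no 2 libraries were identical. The test was tried on simulated data first. Genes named in the text are the 12 largest non-overlapping differences in each direction at a mean of at least 1 RPKM, the first 3 and up to 4 called genes of each list by smallest p, the genes the study names, 5 interaction genes in each direction and at most 6 promoters. The members and the lists were chosen with earlier results of these data known. Alternatives were other pseudocounts (0.1 and 1), filters, scalings, library sets, a depth covariate, library weights, a regularized t statistic and leaving out each mouse. The 2 settings that leave out a pair of mice were chosen after seeing the data. Python 3.11.15 was used for tables and figures. Some genes of the lists are counted but not reported here by name.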

Additional observations from a re-analysis of the deposited data

Results flagged for a closer look

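In each group of 6 trained mice, the mouse farthest from the others was compared with Dixon's critical value for 6 samples on the log2 scale, for every named gene. Of 374 groups, 26 held such a mouse, where chance gives about 1 in 20. Among them were 7 genes in old mouse OWT-BV-106C, 8 in young mouse YWT-BV-1923 and 5 in young mouse YWT-BV-1915.

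Old mouse OWT-BV-106C was far above the other old mice in Ctss at 512 RPKM (next mouse 285), Cd3e at 3.91 RPKM (0.945), Cd79b at 7.90 RPKM (0.786), Cd3g at 8.62 RPKM (1.65), Jchain at 437 RPKM (7.87), Cxcl9 at 9.60 RPKM (1.47) and Cx3cr1 at 33.0 RPKM (22.4). These are genes of T cells, B cells, plasma cells and microglia.

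Young mouse YWT-BV-1923 was far above the other young mice in Bst2 at 10.8 RPKM (next mouse 5.08), Cxcl13 at 0.142 RPKM (0.0343), Tlr2 at 0.765 RPKM (0.394), Ctsd at 262 RPKM (165) and Pdgfra at 10.2 RPKM (8.94), and far below them in Slc1a2 at 200.1 RPKM (271), Camk2a at 628 RPKM (831) and Pcdhb2 at 0.699 RPKM (1.24). This library also had the highest choroid plexus level of the young trained mice, and the part of that in these values was not tested.

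Young mouse YWT-BV-1915 was high in Cxcl10 at 1.06 RPKM (next mouse 0.339) and Ifit3 at 4.45 RPKM (2.47), and low in Igfbpl1 at 0.838 RPKM (2.23), Mobp at 65.8 RPKM (85.9) and Homer3 at 24.5 RPKM (29.0). Young mouse YWT-BV-1924 was low in Nts at 2.97 RPKM (4.87), still above every old mouse. Single genes stood apart in the other old mice, with Cldn5 at 25.1 RPKM in OWT-BV-109C, Fyn at 31.6 RPKM in OWT-BV-127C, Grin3a at 2.66 RPKM in OWT-BV-116C, Camk2d at 4.94 RPKM in OWT-BV-104C and Pcdhb2 at 3.07 RPKM in OWT-BV-103C.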

How the results depend on the processing

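Of 160 genes picked by the naming rules and called after training, all but 44 kept their call under every setting run for them (24, or 23 for 7 genes that a stricter filter left out), and of these 44, 19 lost it only with all 40 libraries in 1 fit and 12 lost it without at least 1 mouse. None changed sign while called. Genes higher after training numbered 2556, against 1050 with all 40 libraries and 1539 at an adjusted p under 0.05. Genes lower numbered 1256, against 3090 after quantile normalization, 412 with all 40 libraries, 574 at an adjusted p under 0.05 and 714 without mice OWT-BV-103C and OWT-BV-106C. Genes lower by at least 1 numbered 32, against 51 at a pseudocount of 0.1, 17 at a pseudocount of 1, 51 after quantile normalization and 18 without mice OWT-BV-103C and OWT-BV-106C. In the homecage, quantile normalization gave 2352 higher and 5156 lower, and all 40 libraries gave 1597 lower. Library weights gave 927 interaction genes higher and 2302 lower. Without 1 mouse, the counts after training ran from 2084 to 3079 higher and from 943 to 1409 lower, and the interaction from 0 to 522 higher and from 0 to 1731 lower. No paired analysis was possible because the replicate labels are animal numbers that the groups do not share. RPKM values keep no counts, so the precision of low genes, such as those of lymphocytes, was judged from the spread between mice alone, and the cause of the changes between settings was not tested.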
